A study of Mus musculus with 2 samples.

Results

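Utf1 (ENSMUSG00000047751), the gene for undifferentiated embryonic cell transcription factor 1, was followed through 2 single-cell RNA libraries of mouse embryonic stem cells. It is 1 of the 55415 features of the count tables, was taken by its symbol, and was picked because its level differed between the libraries. Its levels are therefore given as a description. One library held cells labelled MERVL-GFP positive and the other cells labelled MERVL-GFP negative. MERVL is an endogenous retrovirus whose long terminal repeat is active in 2-cell embryos and in rare, 2-cell-like cells of embryonic stem cell cultures, and a green fluorescent protein (GFP) under its control marks such cells. The labels name no stem cell strain, sex, culture medium or method of separating the cells. They give the library's own name as the batch, so the effect of a batch and of the reporter state cannot be told apart. With 1 library per group there is no replicate check, cells of a library are not replicates, and no test between the libraries or between classes of cells was made.

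Utf1 encodes a chromatin-associated factor of the inner cell mass, the epiblast, germ cells and cultured pluripotent cells, and it is switched off when such cells differentiate. It binds promoters that carry both activating and Polycomb marks, where it limits loading of Polycomb repressive complex 2, and it recruits the mRNA decapping machinery that degrades transcripts leaking from those promoters. Its own expression is driven by a paired Pou5f1-Sox2 element downstream of the gene.

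In the GENCODE annotation of build GRCm38, Utf1 lies on the plus strand of chromosome 7, at chr7:139943789-139945112, with 2 exons and no overlapping gene. The nearest gene upstream, Kndc1, ends 2252 bases away and the nearest downstream, Gm16201, is 5284 bases away, so reads of Utf1 are not shared with an overlapping neighbour. The start of the gene is shown because the whole report turns on how much RNA arises from it. The 183 bases before the annotated start (RefSeq promoter table, GRCm38.p6, plus strand, chr7:139943606-139943788) read as follows, with capitals marking matches to the GC-box letters GGGCGG.

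Utf1 upstream window: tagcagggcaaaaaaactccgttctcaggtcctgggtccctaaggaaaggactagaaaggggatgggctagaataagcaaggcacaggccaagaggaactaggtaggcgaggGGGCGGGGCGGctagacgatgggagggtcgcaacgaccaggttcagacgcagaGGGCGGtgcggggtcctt

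GGGCGG was searched on both strands and matched 3 times, 2 of the matches sharing a G. Of 32851 promoter windows of the same length, 21.5% held at least 1 match. The window was 59.6% G or C with 10 CpG dinucleotides, against medians of 51.4% and 4 over those windows. These matches describe letters only.

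After removal of 7 poor barcodes, 4596 positive-library and 3832 negative-library cells were analysed, with medians of 29554.5 and 39099.5 unique molecular identifiers (UMIs, here the counts of the deposited tables) per cell. Median mitochondrial shares were 2.56% and 1.60%. The 16 of 18 listed 2-cell-like markers that the tables hold summed to 1868 counts per 1000000 UMIs (CPM) in the positive library and 1.77 CPM in the negative, where Tcstv1 was at 0. GFP itself was at 203 and 0.454 CPM in cells deep enough to be compared at equal depth, so the library labels and the reporter RNA run the same way. The 6 pluripotency markers summed to 13586 and 12760 CPM, of which Dppa5a alone made up 11499 and 10359 CPM. Nanog was the 1 of the 6 that was at least 2-fold higher, and the median log2 ratio of positive to negative library over the 6 was -0.28. Single markers of other cell types also moved with the library. The 7 primitive endoderm markers summed to 189 against 91.2 CPM, and of the 4 abundant enough to be compared Dab2 (82.6 against 20.5 CPM) was at least 2-fold higher. The 7 trophoblast markers summed to 95.8 against 58.3 CPM. Of the trophoblast markers, the keratins Krt8 (31.7 against 7.74 CPM) and Krt18 (36.7 against 8.13 CPM) were higher in the positive library and the factor Tfap2c was lower (18.4 against 39.5 CPM). None of the 6 fibroblast markers was abundant enough to be compared: they summed to 12.8 against 3.14 CPM, most of it Thy1 (9.29 against 2.15 CPM), and the collagen Col3a1 was counted 6 times in positive-library cells and 0 times in negative ones. The part of depth, mitochondrial share and the trophoblast and fibroblast markers in the level of Utf1 was not tested. The libraries shared 3 barcodes.

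Utf1 was lower but not lost in the MERVL-GFP positive library. Its summed level was 162 CPM (95% Poisson interval 160 to 164, 22447 UMIs) against 448 CPM (444 to 451, 70015 UMIs) in the negative library. That is a level 2.76-fold lower (2.72 to 2.80), or a log2 ratio of -1.46 on the CPM + 1 scale. Genes were compared where 1 library or the other reached 10 CPM and the sum was at least 50 UMIs. Of these 8042 genes, 80 (0.995%) were at least 2-fold lower and 564 (7.01%) at least 2-fold higher in the positive library, and 21 had a lower ratio than Utf1. The median log2 ratio over these genes was 0.14. With scaling by the trimmed mean of M-values (TMM), which sets the bulk of genes level, that median was -0.14, Utf1 was at -1.75, and 251 genes were at least 2-fold lower and 406 higher. Intervals here and below cover counting error only. The core and naive pluripotency list did not show this size of difference: of 19 measured members none was 2-fold lower, the median log2 ratio was -0.15, and Nanog, at 410 against 192 CPM, and Fbxo15, an F-box gene long used as a pluripotency reporter, at 809 against 124 CPM, were at least 2-fold higher. With TMM scaling Nanog stayed below that size, at a log2 ratio of 0.80. Of 12 measured genes of the formative and primed list 3 were at least 2-fold lower: Otx2 (7.45 against 19.5 CPM, log2 ratio -1.28), Lef1 (1.89 against 10.4 CPM, -1.99) and Tcf15 (62.9 against 211 CPM, -1.73). Otx2 and Lef1 reached 10 CPM in the negative library alone, so they were measured only through the library where they were higher. Lef1 and Tcf15 had a lower ratio than Utf1, the list's median was -0.01, and with TMM scaling 4 of the 12 were at least 2-fold lower. Pou5f1 (278 against 389 CPM) and Sox2 (454 against 529 CPM), the pair of factors known to drive Utf1, had log2 ratios of -0.48 and -0.22.

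Each cell was then thinned at random, without replacement, to 10000 UMIs, which left out 194 and 8 shallower cells and put all others at equal depth. The thinned Utf1 count had a median of 1 UMI and a mean of 1.51 ± 1.97 (SD over 4402 cells of 1 library) in the positive library. It had a median of 4 and a mean of 4.38 ± 3.14 (3824 cells) in the negative library. The 5th and 95th percentiles were 0 and 5 UMIs in positive and 0 and 10 UMIs in negative cells, so the ranges overlapped widely and the highest counts were 14 and 21. A count of 4 or more was found in 13.1% of positive and 54.3% of negative cells. No Utf1 UMI was left in 40.8% of positive cells (39.3 to 42.2, exact binomial limits at 95%) and in 7.22% of negative cells (6.42 to 8.08). Before thinning these shares were 21.6% (20.4 to 22.8) and 0.652% (0.423 to 0.962), which means that nearly every negative cell and most positive cells carried some Utf1 RNA in the tables. No class of cells in these libraries is known to lack Utf1, so the level that free RNA alone would give was not measured.

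**Figure D1:**
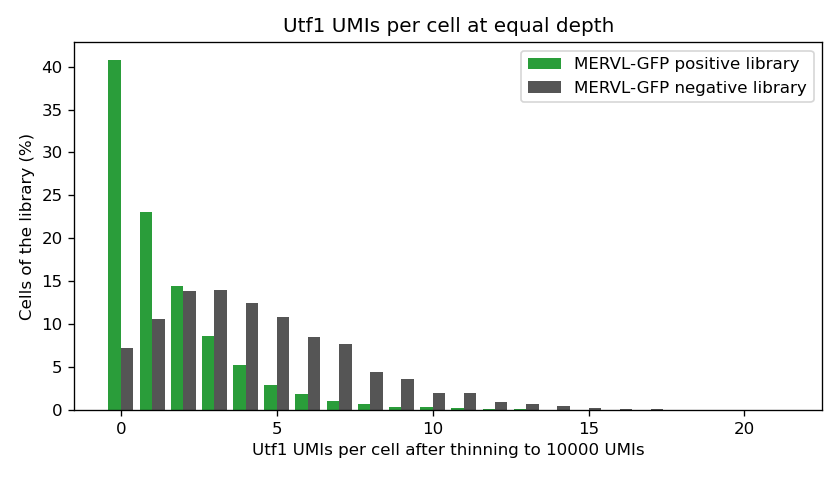
Share of the cells of each library (vertical axis, percent) by number of Utf1 UMIs after thinning to 10000 UMIs per cell (horizontal axis), for 4402 MERVL-GFP positive and 3824 MERVL-GFP negative cells. The positive library has its highest bar at 0 (40.8% of cells), and the negative library spreads around a median of 4, with 7.22% of cells at 0.

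Utf1 counts were more spread than those of most genes of like abundance. The variance of thinned counts was 2.57 times the mean in positive and 2.25 times in negative cells, against medians of 1.21 over 891 genes and 1.26 over 307 genes whose means lay within 1.5-fold of that of Utf1. Higher ratios were seen in 63 and 25 of those genes. A Poisson spread around the mean would leave 22.2% of positive and 1.26% of negative cells at 0, less than the 40.8% and 7.22% observed. Among the genes of like mean the median share of cells at 0 was 28.6% and 3.09%.

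Within the positive library, Utf1 was lower in cells with more RNA of the Zscan4 family, a gene cluster used as a marker of 2-cell-like cells. The family's 9 near-identical features, 3 of them named as pseudogenes, were summed because reads cannot be assigned safely among them. The 1425 cells with no thinned Zscan4 UMI had 208 CPM of Utf1 (204 to 212), and 29.8% of them had none after thinning (27.5 to 32.3). The 1909 cells with 1 to 4 Zscan4 UMIs had 166 CPM (163 to 170) and 37.9% at 0. In the 714 cells with 5 to 19 Zscan4 UMIs Utf1 was at 82.7 CPM (78.7 to 86.8) with 58.4% at 0. The 354 cells with 20 or more had 56.6 CPM (51.3 to 62.3), with 64.7% at 0 (59.5 to 69.7). No neighbouring intervals of the levels overlapped, and the highest class was 3.68-fold below the lowest (3.34 to 4.07, log2 ratio -1.86). In that contrast 605 of 8509 genes (7.11%) were at least 2-fold lower, and 45 had a lower ratio than Utf1.

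Depth and mitochondrial share moved with Zscan4: across these classes the median cell went from 32906 to 19284.5 UMIs and from 2.36% to 3.34% mitochondrial UMIs. The highest and lowest classes were also read within bins of depth. Their median mitochondrial shares there were 3.70% against 3.18% below 20000 UMIs, 2.95% against 2.34% from 20000 and 2.86% against 2.37% from 30000 UMIs. The part of depth and mitochondrial share in the level of Utf1 was not tested. Below 20000 UMIs, where most cells of the highest class lay, cells with 20 or more Zscan4 UMIs had 53.0 CPM of Utf1 (45.1 to 61.9, 192 cells) and cells with none had 143 CPM (126 to 163, 106 cells). From 20000 to below 30000 UMIs, cells with 20 or more Zscan4 UMIs had 60.1 CPM of Utf1 (51.8 to 69.3, 129 cells) and cells with none had 175 CPM (167 to 183, 429 cells). From 30000 to below 40000 UMIs the levels were 54.0 CPM (39.5 to 72.0, 26 cells) and 219 CPM (213 to 226, 565 cells). Other pluripotency genes were lower with it: 12 of 20 measured members of the core and naive list were at least 2-fold lower in the highest Zscan4 class, with a list median of -1.23 against -0.11 over all genes. They include Sox2 (138 against 557 CPM), Zfp42, a zinc-finger gene of naive cells (308 against 1101 CPM), and Esrrb, a nuclear receptor of naive pluripotency (21.4 against 49.7 CPM). Pou5f1 was at 170 against 314 CPM, a log2 ratio of -0.88. Markers of other cell types were lower there as well: 3 of 4 measured endoderm markers (Gata6 at 13.5 against 87.0 CPM, Pdgfra and Dab2) and 2 of 3 trophoblast markers (Tfap2c at 7.09 against 25.1 CPM, and Krt8) were at least 2-fold lower, and the 7 endoderm markers summed to 65 against 251 CPM. Their part in the level of Utf1 was not tested. Fbxo15 alone of the core and naive list was at least 2-fold higher, with 1456 against 547 CPM, where 951 of 8509 genes (11.2%) were.

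The 10 other 2-cell-like markers, with the Zscan4 family left out, gave a like order. Utf1 was at 211 CPM (205 to 218) in the 553 positive cells without any of their UMIs, 194 CPM (191 to 198) with 1 to 4, 103 CPM (98.8 to 107) with 5 to 19 and 69.6 CPM (66.0 to 73.4) in the 850 cells with 20 or more. The share of cells with no thinned Utf1 UMI went from 28.4% to 59.9%. The negative library could not be divided in this way, since 3815 of its 3824 cells had no thinned Zscan4 UMI. Its 33 cells with 1 to 4 UMIs of the other 2-cell-like markers had 322 CPM (291 to 354), below the 449 CPM (445 to 452) of the 3790 cells with none.

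The reporter RNA gave a shallower gradient. Utf1 was at 197 CPM (193 to 200) in the 1675 positive cells without a thinned GFP UMI, 175 CPM (170 to 180) with 1, 138 CPM (135 to 142) with 2 to 4, and 97.3 CPM (93.0 to 102) in the 776 cells with 5 or more. No intervals overlapped, and the shares at 0 were 33.6%, 40.05%, 43.6% and 53.0%. The outer classes differed 2.02-fold (1.92 to 2.12, log2 ratio -1.01), a size reached by 133 of 8217 genes (1.62%) in the lower and 399 (4.86%) in the higher direction. It fell short of that size with TMM or median-of-ratios scaling (-0.90 with either) and among cells from 30000 to below 40000 UMIs (-0.71). Median depth went from 32426 to 24535 UMIs across the GFP classes, and the trophoblast marker Tfap2c was at 9.05 against 26.4 CPM in the outer ones. The part of either was not tested. Since GFP and Zscan4 RNA go together in these cells, both were then read jointly. Among cells without Zscan4 UMIs Utf1 was at 224 CPM (218 to 230) with no GFP, 206 (197 to 215) with 1 GFP UMI, 182 (173 to 191) with 2 to 4 and 150 (136 to 165) with 5 or more. Among cells with 5 to 19 Zscan4 UMIs the 4 GFP classes lay between 77.7 and 84.9 CPM and their intervals overlapped. Among cells with 20 or more they lay between 33.8 CPM (22.6 to 48.5, 41 cells) and 68.2 CPM (58.4 to 79.1, 115 cells), without a steady order. Thus the GFP gradient was seen where Zscan4 RNA was absent or scarce, and whether the gradients differ was not tested.

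**Figure D2:**
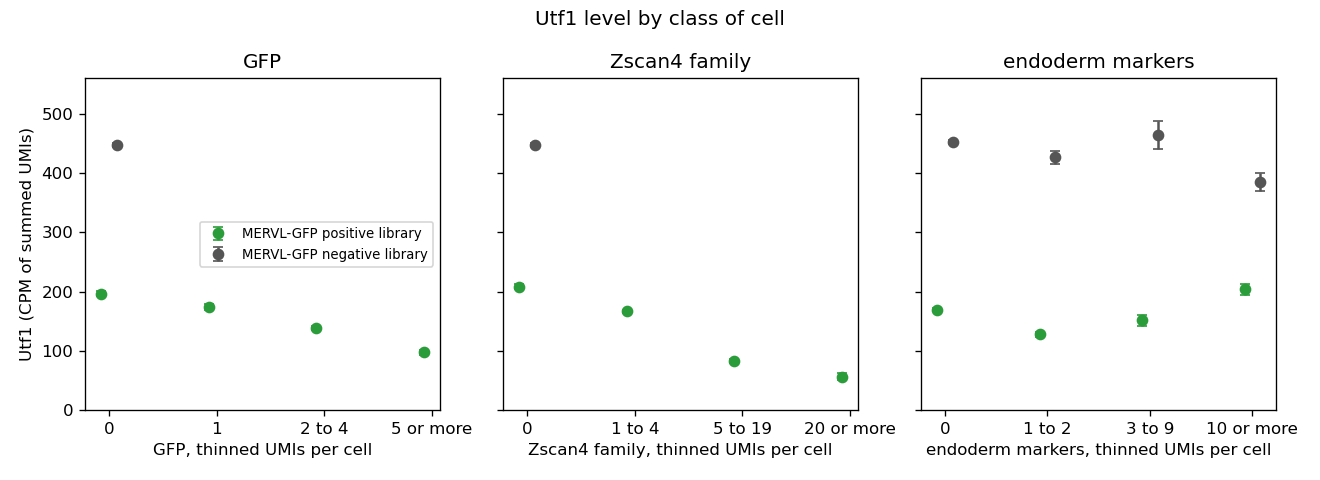
Utf1 level (vertical axis, CPM of summed UMIs) by thinned UMIs per cell of GFP, of the Zscan4 family and of 7 primitive endoderm markers, in the positive (green) and negative (grey) library, with bars for 95% Poisson intervals. Classes of fewer than 20 cells are left out. Positive cells go from 208 to 56.6 CPM with Zscan4 and from 197 to 97.3 CPM with GFP, while endoderm-marker classes show no such order and the negative library stays above the positive in every class both hold.

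Cells with RNA of primitive endoderm markers (Gata6, Gata4, Sox17, Sox7, Pdgfra, Dab2 and Foxa2) kept Utf1 although several other pluripotency genes were low there. Such cells, with 10 or more thinned UMIs of the 7 genes, made up 309 positive (7.02%) and 160 negative (4.18%) cells, and a further 239 and 70 cells lay near that limit with 3 to 9 UMIs. This is a range of a count and not a cell type. In the negative library they had 385 CPM of Utf1 (370 to 401) against 452 CPM (449 to 456) in cells with none, a log2 ratio of -0.23 with a median of 0.04 over all genes. In the positive library the levels were 204 CPM (195 to 213) and 170 CPM (167 to 172). At fixed Zscan4 this difference was not the same throughout. Among positive cells with no Zscan4 UMI the levels were 215 CPM (203 to 229, 148 cells) and 217 CPM (212 to 222, 978 cells), whose intervals overlap. With 1 to 4 Zscan4 UMIs they were 203 CPM (190 to 217, 133 cells) and 171 CPM (167 to 175, 1309 cells). Utf1 was undetected after thinning in 22.3% (17.8 to 27.4) of positive endoderm-marker cells and 40.5% (38.7 to 42.3) of positive cells without these markers. In the negative library the shares were 5% (2.18 to 9.61) and 7.12% (6.26 to 8.06).

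In the same cells Sox2, the partner of Pou5f1 on the Utf1 element, was at 44.6 against 535 CPM in the positive and 72.5 against 557 CPM in the negative library. Nanog, a core pluripotency factor, was at 31.9 against 477 CPM and 15.4 against 202 CPM. Zfp42 was at 178 against 1062 CPM and 223 against 1305 CPM. Pou5f1 was about level, at 269 against 288 CPM and 384 against 391 CPM. Of the core and naive list, 11 of 20 members in the positive and 9 of 19 in the negative library were at least 2-fold lower in endoderm-marker cells, where 6.57% and 4.32% of all genes were. Klf5 and Lin28a were at least 2-fold higher in both libraries, Sall4 in the positive (456 against 214 CPM) and Tbx3 in the negative (550 against 242 CPM), as were 6.51% and 7.41% of all genes. Trophoblast markers moved in the same cells: Krt8 and Krt18 were at least 2-fold higher and Tfap2c at least 2-fold lower in both libraries, and their part in the level of Utf1 was not tested. Of 6 genes with known paired Pou5f1-Sox2 elements, Fgf4, Nanog and Sox2 were at least 2-fold lower in both libraries and Lefty1 in the negative. Fgf4, the growth factor with the best known such element, was at 9.59 against 133 CPM and 6.07 against 88.1 CPM. The other members were within 2-fold, as Utf1 was: 3 in the positive library (Pou5f1, Lefty1 and Fbxo15) and 2 in the negative (Pou5f1 and Fbxo15). Utf1, also a gene with such an element, differed from Fgf4 in these cells by its values, and this was not tested. In the 28 positive cells with both 5 or more Zscan4 UMIs and 10 or more endoderm-marker UMIs, Utf1 was at 129 CPM (104 to 158), above the 72.5 CPM (68.5 to 76.7) of the 652 cells with Zscan4 but no endoderm marker.

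Utf1 was also lower in positive-library cells outside both states. Cells with no thinned UMI of GFP, the Zscan4 family or the endoderm markers, termed silent, had 235 CPM (228 to 242, 559 cells) in the positive and 453 CPM (449 to 457, 3239 cells) in the negative library. The level was 1.93-fold lower (1.87 to 1.99, log2 ratio -0.94). The silent positive cells also had a lower median depth (33734 against 39298 UMIs), a higher median mitochondrial share (2.43% against 1.61%) and more Krt8 (27.4 against 5.87 CPM) and Krt18 (37.7 against 7.46 CPM), and the part of these in the level of Utf1 was not tested. This stayed short of the 2-fold size that 18 of 7756 genes (0.232%) reached, and 26 genes had a lower ratio. With TMM scaling it was at -1.27, past that size, with 80 genes at least 2-fold lower and 104 higher. No Utf1 UMI was left after thinning in 25.2% (21.7 to 29.0) and 7.07% (6.21 to 8.01) of these cells. Before thinning the silent positive cells still held 24.1 CPM of GFP and 41.5 CPM of Zscan4, against 0.241 and 0.166 CPM in negative ones. In the 80 positive cells without any of these UMIs before thinning, Utf1 was at 258 CPM (237 to 281), against 457 CPM (453 to 462) in 2519 negative cells chosen likewise. Of 20 measured core and naive members in silent cells, 3 were at least 2-fold higher: Nanog (458 against 202 CPM), Prdm14 and Fbxo15. None was 2-fold lower, and 2.44% of all genes were at least 2-fold higher. With TMM scaling Fbxo15 alone of the list was past that size. Sox2 (674 against 556 CPM), Zfp42 (1308 against 1303 CPM) and Pou5f1 (336 against 390 CPM) had log2 ratios of 0.28, 0.01 and -0.22 in silent cells. The median over all genes was 0.16. The sign of Sox2 and Zfp42 turned with TMM scaling, to -0.05 and -0.32. Tcf15, a basic helix-loop-helix factor that primes stem cells for differentiation, had a lower ratio than Utf1 in silent cells, at 81.8 against 216 CPM (log2 ratio -1.39). So had Lef1 (4.14 against 10.8 CPM, -1.20), which reached 10 CPM in the negative library alone.

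The CPM of Utf1 varied with the depth of the cell. In the silent cells of the negative library it was 352 CPM (323 to 383) in cells below 20000 UMIs, 396 (384 to 408) from 20000 to below 30000, 443 (437 to 450) from 30000 to below 40000 and 468 (463 to 473) from 40000 UMIs. In the silent cells of the positive library these levels were 231 (192 to 276), 194 (181 to 208), 241 (230 to 252) and 253 CPM (241 to 266). At each depth the positive library was lower and the intervals did not overlap. Their log2 ratios were -0.60, -1.03, -0.88 and -0.88 in this order. Among all cells the levels were 74.1 against 348 CPM in the shallowest bin, 129 against 388, 181 against 435 and 199 against 465 CPM, with log2 ratios of -2.22, -1.58, -1.26 and -1.22. The positive library was lower in each bin. The shallowest bin had the largest log2 difference among all cells and the smallest among silent cells, where the positive library had 35 cells and 121 Utf1 UMIs. Among all positive cells the Zscan4 family was at 1887 CPM in the shallowest and 196 CPM in the deepest bin. Its part in these differences was not tested.

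**Figure D3:**
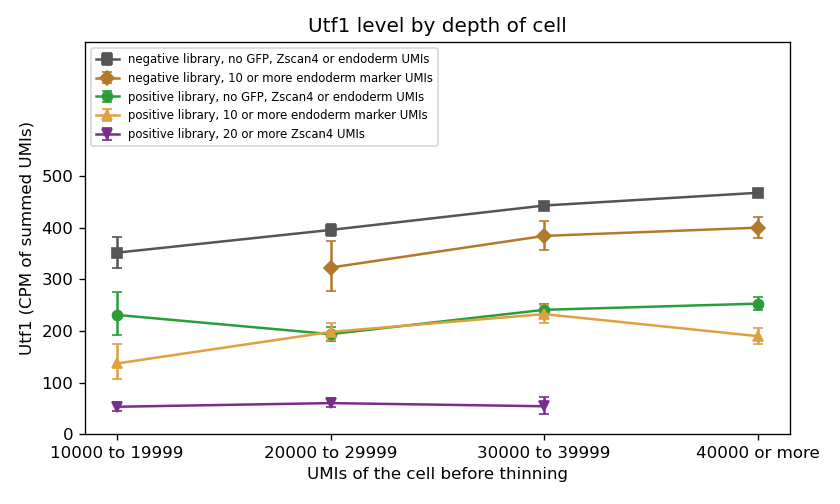
Utf1 level (vertical axis, CPM of summed UMIs) by UMIs of the cell before thinning (horizontal axis, 4 bins) for 5 classes of cells, with bars for 95% Poisson intervals and bins of fewer than 20 cells left out. Silent negative cells lie between 352 and 468 CPM, silent positive cells between 194 and 253 CPM, and positive cells with 20 or more Zscan4 UMIs between 53.0 and 60.1 CPM.

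The cell cycle lists moved with Utf1 more in the positive than in the negative library, by their values. In positive cells Utf1 was at 133 CPM (129 to 136), 160 CPM (157 to 164) and 196 CPM (192 to 200) from the lowest to the highest of 3 groups of cells ordered by UMIs of 10 S-phase genes. In negative cells the levels were 431, 451 and 467 CPM. For 10 genes of G2 and M phase the order was the other way in positive cells, with 191, 175 and 125 CPM. Negative cells were at 448, 474 and 426 CPM, highest in the middle group. Other measures moved across the same groups of positive cells. From the lowest to the highest S-phase group the median depth went from 26620 to 32825 UMIs, the Zscan4 family from 674 to 252 CPM and the endoderm markers from 365 to 69.2 CPM. From the lowest to the highest G2 and M group the Zscan4 family went from 314 to 695 CPM. The part of the cycle and of these measures in the level of Utf1 was not tested.

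Genes that vary with Utf1 from cell to cell were sought in the negative library. Over 3824 thinned cells and 6897 genes found in at least 10% of them, Pearson's r of ln(1 + UMIs) with Utf1 ranged from -0.26 to 0.35, around a median of -0.0047. It reached 0.2 for 4 genes (0.058%) and -0.2 for 2 genes (0.029%), and 0.1 for 144 genes (2.09%) and -0.1 for 46 (0.667%). The counts depend on depth: an r of 0.2 was reached by 40 genes after thinning to 20000 UMIs and by 113 without thinning, and an r of -0.2 by 6 and 21. All points share 1 library, so these are weak associations given as a description, without a test.

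The 10 genes with the highest r were Mkrn1 (0.35), an E3 ubiquitin ligase that binds RNA, G3bp2 (0.28), an RNA-binding protein of stress granules, Tcf15 (0.25), Ran (0.20), the nuclear transport GTPase, and its binding partner Ranbp1 (0.19), then Jarid2 (0.19), a subunit of Polycomb repressive complex 2, Btf3 (0.18), Cacybp (0.18), Rps4l (0.18) and the corepressor Ctbp2 (0.17). All 10 had an r of at least 0.1 in the positive library too, where they lay between 0.11 for Cacybp and 0.31 for Ranbp1, and 546 of the 6897 genes (7.92%) had an r of at least 0.1 there. In the 559 silent positive cells they lay between 0.11 and 0.31. Ctbp2 had an r of 0.30 in the positive library, above its 0.17 in the negative, and Tcf15 an r of 0.16, below its 0.25.

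The 10 genes with the lowest r were Malat1 (-0.26), an abundant nuclear long noncoding RNA, H3f3b (-0.21), which encodes the histone variant H3.3, Rpl12 (-0.18), Id2 (-0.17), an inhibitor of basic helix-loop-helix factors, Rps20 (-0.16), Fbxo15 (-0.16), Rplp1 (-0.15), the adhesion genes Jam2 (-0.15) and Pecam1 (-0.15), and Klf2 (-0.15), a naive pluripotency factor. In the positive library, where 54.9% of all these genes were above 0, all 10 were below 0, and 4 reached -0.1, as did 224 of the 6897 genes (3.25%). Fbxo15 was at -0.30 there, Id2 at -0.19 and Malat1 at -0.03. Counts of ribosomal protein genes, of H3f3b and of Mkrn1 may include reads of near-identical copies elsewhere in the genome.

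**Figure D4:**
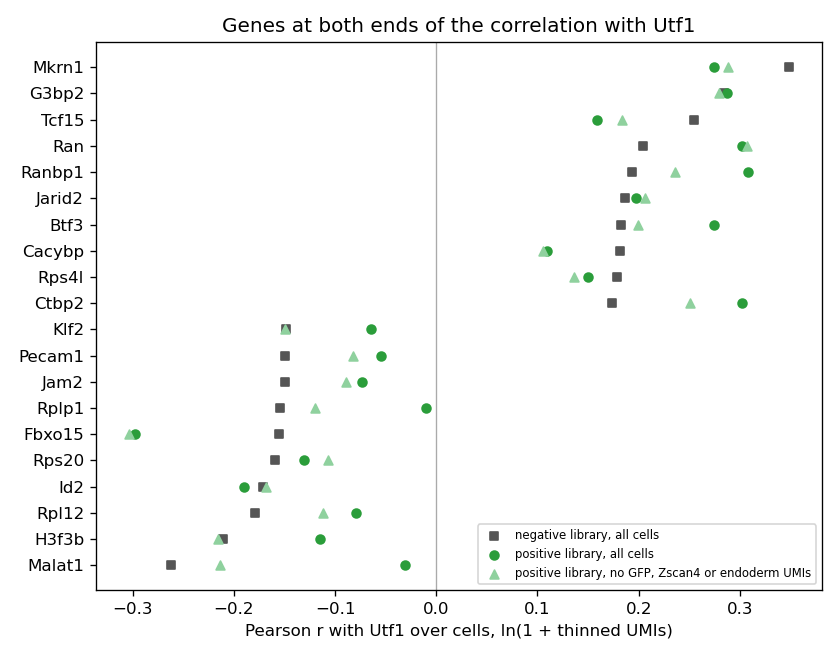
Pearson's r with Utf1 over cells (horizontal axis, ln of 1 + thinned UMIs) for the 10 genes at each end of the negative-library ranking (vertical axis), in negative cells, positive cells and silent positive cells. The upper 10 genes are right of 0 and the lower 10 left of 0 in all 3 sets, with Mkrn1 highest in the negative library (0.35) and Fbxo15 lowest in the positive (-0.30).

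The size of these differences was read from negative-library cells grouped by thinned Utf1 UMIs: 276 cells with 0, 936 with 1 to 2, 1422 with 3 to 5, 929 with 6 to 9 and 261 with 10 or more. The cells with 0 were not without the transcript, having 135 CPM before thinning, against 928 CPM in the highest group. Median depth went from 38082.5 to 40892 UMIs and the mitochondrial share from 1.64% to 1.52% across the groups. Trophoblast markers were lower in the highest group, with Krt8 at 4.45 against 18.4 CPM, Krt18 at 6.09 against 16.2 CPM and Tfap2c at 30.5 against 61.6 CPM, the first and second of them past 2-fold. The part of these measures in the following values was not tested. Tcf15 was at 129 CPM (122 to 136), 146, 212, 263 and 313 CPM (302 to 323) in this order. Mkrn1 went from 1130 CPM (1110 to 1150) to 2078 CPM (2052 to 2106), and G3bp2 from 445 CPM (432 to 458) to 783 CPM (767 to 800). Id2 was at 75.2 CPM (70.1 to 80.6), 40.1, 25.8, 21.9 and 14.1 CPM (12.0 to 16.5). Malat1 went from 7610 CPM (7558 to 7663) to 3843 CPM (3806 to 3880). These 5 genes were picked by their r with Utf1 in the same cells, which fixes such gradients, so their values describe size only.

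None of 19 measured members of the core and naive list was 2-fold apart between the outer groups. Few genes were: 0.963% of all genes were at least 2-fold lower and 0.258% higher. The list's median log2 ratio of the highest to the lowest group was -0.21, with -0.08 over all 7372 genes. Of 19 members with an r, Tbx3, Fgf4, Klf2 and Fbxo15 were past -0.1, as were 0.667% of all genes with an r. Pou5f1 and Dppa4 were past 0.1, as were 2.09%. Sox2 was at 503 against 583 CPM, Nanog at 167 against 252 CPM, Klf2 at 403 against 631 CPM and Tbx3, a T-box factor of naive cells, at 202 against 309 CPM, while Pou5f1 was at 440 against 342 CPM. Fgf4, with 64.9 against 120 CPM, and Lefty1, a Nodal inhibitor, with 13.5 against 50.1 CPM, were lower in Utf1-high cells. Lefty1 was past the 2-fold size that 71 genes (0.963%) reached in the lower direction. Of the formative and primed list, Lef1, a Wnt effector (17.7 against 5.59 CPM), and Tcf15 were at least 2-fold higher, as were 19 of all genes (0.258%). Lef1 reached 10 CPM in the highest group alone, and Tcf15 was picked by its r in the same cells, so both describe size only. The median of 12 measured members was 0.52. Otx2, the classical factor of the primed state, was at 19.2 against 19.6 CPM.

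**Figure D5:**
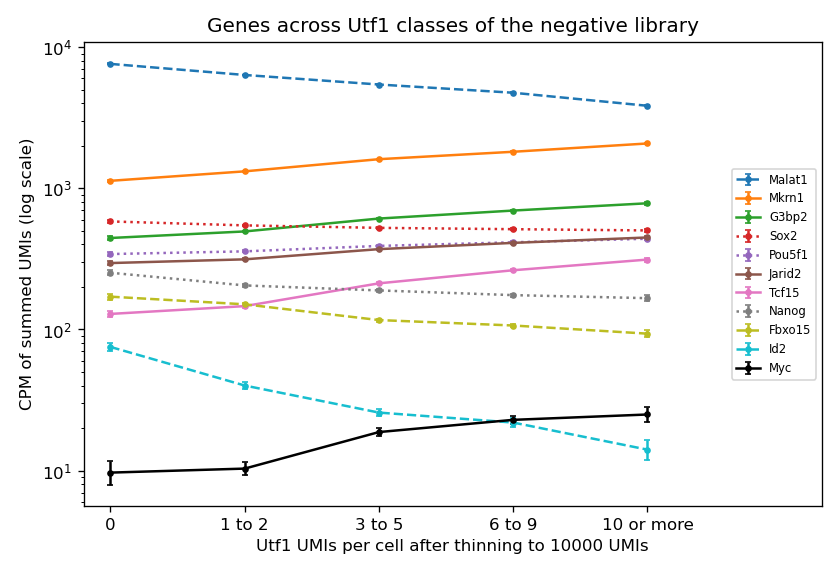
Levels of 11 genes (vertical axis, CPM of summed UMIs, log scale) in negative-library cells grouped by thinned Utf1 UMIs (horizontal axis), with bars for 95% Poisson intervals. Tcf15 climbs from 129 to 313 CPM and Id2 goes down from 75.2 to 14.1 CPM, while Sox2 moves from 583 to 503 CPM.

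Genes tied to the known activity of Utf1 were read next. Of 12 partners and targets, 11 were measured between the outer Utf1 groups of the negative library. Only Myc, a proto-oncogene and known target of Utf1, was at least 2-fold apart, with 24.99 CPM (22.1 to 28.1) against 9.68 CPM (7.91 to 11.7). Myc reached 10 CPM in the highest group alone, and 0.258% of all genes were at least 2-fold higher there. The list's median was 0.00041. Jarid2 was at 449 against 295 CPM, and Eed, another subunit of Polycomb repressive complex 2, at 255 against 183 CPM, whereas Suz12 was at 220 against 247 CPM and Ezh2, the catalytic subunit, at 231 in both. Cdkn2a, whose locus encodes the p19Arf tumour suppressor, was at 66.9 CPM in the outer groups and between 66.7 and 66.8 CPM in the others. Between the libraries, Mtf2 (761 against 296 CPM) and Epop (323 against 138 CPM), both accessory factors of Polycomb repressive complex 2, were at least 2-fold higher in the positive library, and no member was 2-fold lower, where 7.01% and 0.995% of all genes were. With TMM scaling Mtf2 alone was past that size. In silent cells Epop alone of the 12 remained past that size, at 335 against 128 CPM, where 2.44% of all genes were at least 2-fold higher. Epop and Myc were the members at least 2-fold lower in the highest Zscan4 class, at 129 against 357 CPM and 6.54 against 15.8 CPM, with 7.11% of all genes at least 2-fold lower there. The median of the 12 members in that contrast was -0.18, with -0.11 over all genes.

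Of 8 feedback genes of FGF and ERK signalling, 1 was at least 2-fold higher, 1 at least 2-fold lower and 6 within 2-fold between the outer Utf1 groups of the negative library, with a median log2 ratio of 0.66. Over all genes 0.258% were at least 2-fold higher and 0.963% lower, and the median was -0.08. Spry4, a receptor tyrosine kinase inhibitor, was the higher one, at 71.9 against 25.2 CPM. Etv4, an ERK-responsive ETS factor, was at 53.3 against 28.7 CPM and Dusp6, an ERK phosphatase, at 26.1 against 14.4 CPM. Egr1, an immediate early gene, was the lower one, at 11.8 against 25.2 CPM. In the positive library, Spry4 was at 98.3 CPM in the 215 cells with 6 or more thinned Utf1 UMIs and at 20.1 CPM in the 1795 cells with none, and the median of the 8 genes was 0.85 with -0.05 over all 8159 genes. Spry4 and Etv4 were past the 2-fold size there, which 83 genes (1.02%) reached in the higher direction.

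In the same grouping of positive cells, 17 of 20 core and naive pluripotency genes were within 2-fold between cells with 6 or more Utf1 UMIs and cells with none. Klf5, a Krüppel-like factor (536 against 253 CPM), and Nr0b1, a nuclear receptor of stem cells (119 against 54.7 CPM), were at least 2-fold higher. Fbxo15, at 348 against 1075 CPM, was at least 2-fold lower, as were 412 of 8159 genes (5.05%). Sox2 was at 592 against 388 CPM and Zfp42 at 1271 against 736 CPM, log2 ratios of 0.61 and 0.79. Foxd3, a forkhead repressor of the formative list, was at 55.7 against 13.2 CPM. Utf1-high positive cells were also deeper (34930 against 27338 UMIs) and had 1.22 against 9.41 mean Zscan4 UMIs. Markers of other cell types past 2-fold were Gata6, at 74.3 against 35.5 CPM, and Krt18, at 18.7 against 48.8 CPM. The part of these measures in the values was not tested.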

How the data were processed

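Single-cell RNA counts of 1 MERVL-GFP positive and 1 MERVL-GFP negative library were used as the authors deposited them: whole-number counts per gene and cell, in sparse matrices, read here as UMIs because each barcode has 16 bases. The submitters' processing notes name FastQC 0.11.2, Trim Galore 0.6.4, STAR 2.7.6a and mm10, without their roles. Counting, annotation and cell calling are not given in the sources used here, and the extraction text describes kits for bulk RNA. Of 55414 Ensembl IDs, 52081 are in the GENCODE annotation used here.

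Cells needed 1000 UMIs, 500 genes and at most 20% mitochondrial UMIs. No doublet caller was run. UMIs were summed per class and scaled to CPM, with exact Poisson intervals, ratios with exact conditional intervals, and log2 ratios of CPM + 1 for genes with at least 10 CPM in 1 class and 50 UMIs in all. Classes, zero shares and correlations used cells thinned to 10000 UMIs. Lists describe only members that passed these minima. A member could pass through the class where it was higher alone, so counts of members at least 2-fold apart are a description. Named genes were Utf1, the 10 highest and 10 lowest r in the negative library, and list members. Utf1 and the lists were chosen with earlier results of these data known. The endoderm contrasts, depth bins, cycle groups, positive-library Utf1 groups, genes of like mean and some alternatives were chosen after values had been seen. So was a second thinning, with a random draw for each cell that does not depend on which other cells are kept. Its values replaced those of the first draw. The steps recovered known folds in simulated counts. Those were Poisson draws of large sums, with folds above the 2-fold cut-off, so extra spread, a library effect and small classes were not checked. Scaling by the trimmed mean of M-values (TMM) came from edgeR 4.0.16, used for nothing else, and intervals from scipy 1.17.1, in Python 3.11.15.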

Additional observations from a re-analysis of the deposited data

How the results depend on the processing

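No paired analysis was possible because the labels give 1 library for each reporter state and so nothing to pair. For the same reason no library could be left out. Of 109 alternative values for the main results, 69 moved by less than their counting intervals or less than 1.5-fold for counts, 37 moved further and 3 changed sign. The lower level of Utf1 in the positive library (log2 ratio -1.46) was -1.75 with TMM and with median-of-ratios scaling, which shift the median of all genes from 0.14 to -0.14. It was -1.50 outside ribosomal protein and mitochondrial genes, -1.58 as a mean of per-cell CPM and -1.26 in cells with 30000 to below 40000 UMIs. The Zscan4 contrast (-1.86) was -1.64 and -1.56 after thinning to 5000 and 20000 UMIs and -1.59 with other 2-cell-like markers. The GFP contrast (-1.01) was -0.86 at 20000 UMIs, -0.90 with either scaling, -1.20 without endoderm-marker cells and -0.71 in cells with 30000 to below 40000 UMIs. In silent cells (-0.94) it was -1.05 and -0.84 at 5000 and 20000 UMIs, -1.27 with TMM, -1.30 with median-of-ratios scaling, -0.88 in cells with 30000 to below 40000 UMIs and -0.82 in cells silent before thinning. The endoderm contrast without Zscan4 in the positive library (-0.0097) had no stable sign: 0.10 at 5000 UMIs, 0.0062 with median-of-ratios scaling and 0.031 in cells with 30000 to below 40000 UMIs. In the negative library (-0.23) it was -0.36 and -0.13 at 5000 and 20000 UMIs, -0.33 with TMM and -0.31 with median-of-ratios scaling.

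The share of cells with no Utf1 UMI follows the depth it is read at: 57.4%, 22.0% and 21.6% of positive cells and 18.7%, 2.44% and 0.652% of negative cells at 5000 UMIs, 20000 UMIs and unthinned, and 6.33% of negative cells with another random draw. Counts of correlated genes do as well: an r of 0.2 was reached by 2, 40 and 113 genes and -0.2 by 1, 6 and 21 genes at 5000 UMIs, 20000 UMIs and unthinned, and -0.2 by 1 gene with Spearman's rho. Mkrn1, G3bp2, Tcf15, Rpl12, H3f3b and Malat1 stayed among the 10 at their end in 12 of 12 settings, the others in 8 to 11. Single-gene correlations changed sign in 0 of 238 alternative values and moved in 58, mostly with the thinning: Mkrn1 ranged from 0.26 to 0.47, G3bp2 ranged from 0.20 to 0.44, Tcf15 ranged from 0.18 to 0.40, Ctbp2 ranged from 0.11 to 0.36, Fbxo15 ranged from -0.25 to -0.08, Id2 ranged from -0.23 to -0.11 and Malat1 ranged from -0.31 to -0.20. TMM scaling turns the sign of small library ratios of list members, among them Klf5, Tdgf1, Ezh2 and Suz12. The causes of these shifts were not tested.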
